A study of Mus musculus with 12 samples.

Results

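Osteoclasts were compared with macrophages of the same origin after both had received lipopolysaccharide (LPS), a component of the outer membrane of Gram-negative bacteria that is sensed through Toll-like receptor 4. The comparison takes 6 of the 12 libraries of the series, 3 of LPS-treated osteoclasts and 3 of LPS-treated macrophages, and every gene that reached 1 FPKM (fragments per kilobase of transcript, here scaled to the typical gene) in at least 3 of the 12 libraries. That rule kept 11335 of the 54532 genes in the deposited table. The other 6 libraries, 3 for each cell type without LPS, served to show which differences were already there before treatment.

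Cells came from the femurs and tibiae of mice labelled WT, and every group shared that genotype and the culture in CMG, a conditioned source of M-CSF. Bone-marrow-derived macrophages received no RANKL. Osteoclasts were made from the same kind of macrophage with RANKL, given as 100 ng/mL in the sample source, which is the top of the range that the protocol gives. LPS was added at 100 ng/mL for 3 h on day 5, and the age and sex of the mice are not given in the labels. No sorting step is given in the labels for the osteoclasts, and the whole culture was taken as the group. Nothing in the labels says that the 3 libraries of a group came from separate mice or cultures, so p-values measure only the spread between these libraries, which may be technical.

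Osteoclasts are the bone-resorbing cells of the body. They form when cells of the macrophage lineage fuse under M-CSF and RANKL, acidify a sealed space on bone through a proton pump and a chloride channel, and digest the exposed collagen with cathepsin K. Macrophages answer LPS through TLR4, CD14 and MD-2, with the adapters MyD88 and TRIF feeding NF-kB, AP-1 and interferon regulatory factors, which drive cytokines, chemokines and, through interferon-beta, a large set of antiviral genes.

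Marker genes went with the labels. Cathepsin K, the proton pump subunit Atp6v0d2 and the fusion protein Dcstamp were high in each osteoclast library and at most 2.77 FPKM in each LPS-treated macrophage library, while the mannose receptor Mrc1 was at most 3.41 FPKM in the osteoclasts and at least 311 FPKM in the macrophages. The 6 LPS-treated libraries held between 15651758 and 20281443 assigned reads. Mitochondrial genes took 1.27 to 1.37% of reads in LPS-treated macrophages and 5.16 to 6.18% in LPS-treated osteoclasts. Of the marker lists of other cell types, T and NK cell genes were at 0 for 6 of 6 genes in all LPS-treated libraries. The 9 neutrophil genes summed to 6.88 to 16.4 FPKM in macrophages and 0.569 to 1.88 in osteoclasts, and the 8 osteoblast and stromal genes summed to 19.9 to 24.5 and 0.843 to 1.31 FPKM, nearly all of the former from Col1a1. The 6 dendritic cell genes summed to 5.26 to 6.11 and 1.28 to 1.71 FPKM, the 4 endothelial genes to 4.79 to 4.89 and 0.773 to 1.54 FPKM, and B cell, mast cell and erythroid genes to at most 1.04 FPKM in any LPS-treated library. The immunoglobulin heavy chain gene Ighm, in none of these lists and chosen after its values were seen, averaged 17.2 FPKM in LPS-treated macrophages, while the osteoclasts given LPS did not exceed the floor, at least 191-fold lower. Among those at 0 in each LPS-treated library were the neutrophil gene Retnlg, the mast cell genes Fcer1a, Ms4a2 and Mcpt4 and the erythroid gene Hbb-bt, while S100a8, S100a9 and Ngp reached 1 FPKM. What these other cells contribute to the results was not tested.

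LPS-treated osteoclast replicate 2 stood apart from the others for genes lower in osteoclasts. It was the lowest of the 3 osteoclast libraries for 1422 (60.9%) of the 2336 genes that were lower in osteoclasts by at least 1 log2 unit. Of the 1802 genes higher by at least 1 log2 unit, replicate 2 was the lowest for 300 (16.6%) and replicate 3 for 851 (47.2%). The 17 genes of macrophage identity listed below summed to 2429, 1415 and 2174 FPKM in osteoclast replicates 1, 2 and 3, against 19243 to 19632 FPKM in the macrophages. Lyz2 alone made up most of each of these sums, and its values are given below with those of other members. In untreated osteoclasts replicate 2 was the lowest too, at 2026, 1603 and 1906 FPKM. In these bulk samples, fewer cells of a type and less RNA per cell cannot be told apart, and the share of macrophages left in the osteoclast cultures was not measured. Medians of the lists that moved with replicate 2 are given with and without it.

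Limma called 9509 of the 11335 genes different between the LPS-treated groups at an adjusted p under 0.05, which is 83.9% of the genes tested. Osteoclasts were higher for 4638 genes (40.9%) and lower for 4871 (43%), an order that turned to 5224 and 4306 after rescaling to TPM and 5194 and 4328 under quantile normalization. At a difference of at least 1 log2 unit, 1802 genes (15.9%) were higher in osteoclasts and 2336 (20.6%) were lower, but these were 2472 and 2412 after rescaling to TPM and 2001 and 2078 under quantile normalization. At least 2 log2 units separated 510 genes (4.5%) higher and 998 (8.8%) lower in osteoclasts, and at least 4 log2 units 61 (0.538%) and 157 (1.39%). At 6 log2 units the order was the other way, with 21 (0.185%) higher and 14 (0.124%) lower. For 9477 genes (83.6%) all 3 libraries of a group lay on 1 side of the other group's. Log2 differences are osteoclast minus macrophage after adding 1 FPKM, which shrinks the differences of genes with low values, and the median over all genes tested was -0.02. Because so many genes were called, a count of called members in a gene list says little, and the sizes are given beside it.

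By class of transcript, 8863 of 10261 protein-coding genes passed the test, 4334 on the osteoclast side and 4529 on the macrophage side. Among 143 lincRNAs, 68 were higher and 45 lower, and among 141 antisense genes 53 were higher and 60 lower. Of 274 processed pseudogenes, 47 were higher and 76 lower.

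The 12 genes furthest to the osteoclast side were Ctsk, Mmp9, Mt3, Acp5, Dcstamp, Atp6v0d2, Gm20056, Akr1c18, Oscar, Siglec15, Slc9b2 and Tm4sf19. The 12 furthest to the macrophage side were Fcrls, Il1b, Ch25h, Il1a, Mrc1, Ccl7, Olr1, Tnfsf9, Mmp13, F13a1, Hpgd and P2ry6. Of the 24, 14 also passed the test that the difference with LPS was unlike that without LPS (the interaction), 5 on the osteoclast side and 9 on the macrophage side, against 56.6% of all genes tested.

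**Figure D1:**
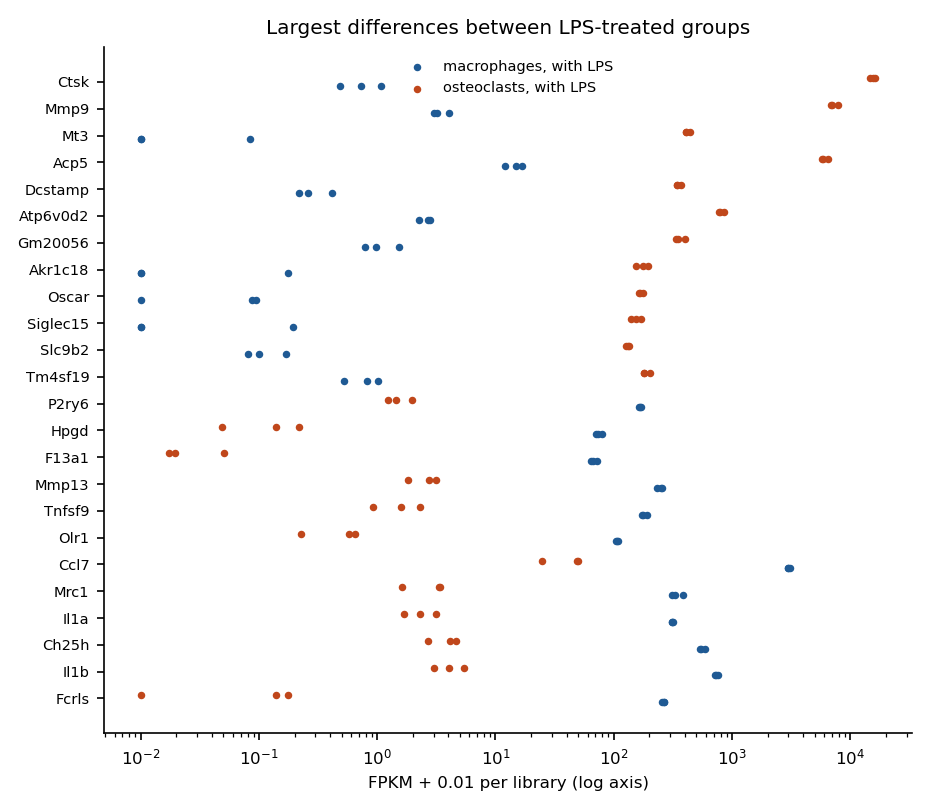
FPKM of the 24 genes with the largest differences in the 3 LPS-treated macrophage libraries (blue) and the 3 LPS-treated osteoclast libraries (red), 1 point per library, on a log axis after adding 0.01. No gene's groups overlap, and osteoclast replicate 2 gives the lowest of the red points for Ccl7, Mrc1, Il1a and Il1b.

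Ctsk, the gene of the collagen-degrading protease cathepsin K (chromosome 3, 95499256 to 95509362), measured 0.725, 1.06 and 0.471 FPKM in LPS-treated macrophage replicates 1, 2 and 3 and 15534, 16279 and 14763 FPKM in LPS-treated osteoclast replicates 1, 2 and 3. Values of other genes are in the same order, macrophages against osteoclasts. Its osteoclast values stood 20613-fold above the macrophage values, with only 48 macrophage reads behind the lower mean, and the difference was 13.13 log2 units (SE 0.23, limma adjusted p = 1.72e-13). Mmp9, a gelatinase on chromosome 2 (164940780 to 164955850), measured 4.05, 2.99 and 3.22 FPKM in macrophages and 6831, 7806 and 7042 FPKM in osteoclasts, a difference of 10.68 (SE 0.09, limma adjusted p = 3.89e-16). The interaction was called for neither gene, with an adjusted p of 0.322 for Ctsk and 0.0901 for Mmp9.

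Acp5 encodes tartrate-resistant acid phosphatase, the classical stain of osteoclasts (chromosome 9, 22126727 to 22135711). LPS-treated macrophages had 14.9, 12.1 and 16.7 FPKM and LPS-treated osteoclasts 5852, 6425 and 5748 FPKM. The osteoclast side was 412-fold higher, with a difference of 8.60 (SE 0.19, limma adjusted p = 1.34e-12). Without LPS the difference was 11.64, with untreated macrophages at a mean of 0.95 FPKM, and the change of -3.04 was called (limma interaction, adjusted p = 1.60e-06). Acp5 shares exon sequence with 6530413G14Rik on the opposite strand, and use of strand in the counting is not stated, so its values are uncertain.

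Several osteoclast genes were at the detection floor in macrophages, meaning that each of the 3 libraries held 3 reads or fewer. Oscar, an immunoglobulin-like receptor that signals through the Fc receptor gamma chain, had 0.0848, 0 and 0.0771 FPKM in macrophages and 168, 177 and 162 FPKM in osteoclasts, at least 1441-fold higher. Siglec15, a sialic-acid-binding lectin that couples to DAP12, had 0, 0 and 0.185 against 141, 169.6 and 156 FPKM, at least 829-fold higher. Mt3, a metallothionein, had 0.0735, 0 and 0 against 409, 441 and 405 FPKM, at least 2059.5-fold higher. These bounds were set against the floor of 3 reads per library and cover counting error only.

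The steroid-reducing enzyme gene Akr1c18 had 0, 0.167 and 0 FPKM in macrophages and 194, 177 and 154 FPKM in osteoclasts, at least 975-fold higher. The fusion gene Dcstamp had 0.206, 0.252 and 0.401 against 342, 369 and 340.4 FPKM. The sodium-proton exchanger gene Slc9b2 had 0.0713, 0.158 and 0.0906 against 134, 132 and 127 FPKM. Tm4sf19, a four-pass membrane protein gene on chromosome 16 (32400506 to 32408227), had 0.81, 1.01 and 0.509 against 179, 201 and 179.6 FPKM. Gm20056, annotated as a processed pseudogene, lies right after it on the same strand (32408536 to 32409054) and had 1.51, 0.775 and 0.96 against 350.5, 404 and 334 FPKM. Reads of these neighbours and of any parent gene of the pseudogene were not told apart here.

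In all, 24 genes averaged at least 10 FPKM in LPS-treated osteoclasts and were at the floor in LPS-treated macrophages. Of these, 22 also reached 10 FPKM in untreated osteoclasts and 13 were at the floor in untreated macrophages. In the other direction, 8 genes averaged at least 10 FPKM in LPS-treated macrophages and were at the floor in LPS-treated osteoclasts. Of those 8, 7 were at the floor in untreated osteoclasts and 3 reached 10 FPKM in untreated macrophages. Some of these floors gave weak bounds, at least 4.88-fold for Gm22933, 4.03-fold for Mir146, 6.48-fold for Mir7679 and 4.49-fold for Mir7683. Among the 24 osteoclast genes mt-Tt had a bound of 6.07-fold. The bounds of all other genes in both directions were from 47.7-fold up.

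On the macrophage side, Il1b had the largest difference among cytokines. This gene of the pro-inflammatory cytokine interleukin-1 beta (chromosome 2, 129364570 to 129371139) measured 733, 722 and 759 FPKM in LPS-treated macrophages and 5.4, 2.99 and 4.02 FPKM in LPS-treated osteoclasts. The macrophage values were 178-fold higher, a log2 difference of -7.19 (SE 0.12, limma adjusted p = 1.72e-13). Its neighbour Il1a (129299610 to 129309972) measured 310.2, 312 and 318 against 3.12, 1.68 and 2.28 FPKM, 133-fold higher in macrophages. Without LPS neither gene differed detectably, with log2 differences of -0.24 and -0.02 (adjusted p = 0.103 and 0.903). Il1b shares exon sequence with Il1bos and Il1a with Gm14023, both on the opposite strand.

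Fcrls, an Fc receptor-like scavenger receptor gene, was the furthest to the macrophage side, with 256, 269 and 264 FPKM in macrophages and 0.13, 0 and 0.164 FPKM in osteoclasts, and 13 osteoclast reads in all. Mrc1, the mannose receptor, had 387, 311 and 330.4 against 3.35, 1.62 and 3.41 FPKM. Both had differences without LPS of like size, -7.86 and -6.37, and neither interaction was called (adjusted p = 0.639 and 0.552). F13a1, the A chain of coagulation factor XIII, and Hpgd, a prostaglandin-degrading dehydrogenase, had 7 and 12 osteoclast reads in all, against 63.6 to 72.7 and 71 to 79 FPKM in macrophages.

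The rest of that side were genes with large macrophage values under LPS. Ch25h, which makes 25-hydroxycholesterol, had 591, 537 and 545 FPKM in macrophages and 4.11, 2.69 and 4.59 FPKM in osteoclasts. Olr1, the oxidised LDL receptor LOX-1, had 107, 105 and 108 against 0.636, 0.218 and 0.568 FPKM. Tnfsf9, the 4-1BB ligand, had 177, 191 and 175 against 2.31, 0.905 and 1.57 FPKM. The collagenase gene Mmp13 had 250, 232 and 256 against 3.12, 1.82 and 2.71 FPKM. The UDP receptor gene P2ry6 had 164, 165 and 172 against 1.96, 1.21 and 1.42 FPKM. Osteoclast replicate 2 was the lowest library of its group for each of these 5 genes, and the groups did not overlap.

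The resorption genes were all higher in LPS-treated osteoclasts, 11 of 11, with a median difference of 3.03 against -0.02 for all genes tested. Their FPKM took 7.84 to 9.04% of the summed FPKM of an osteoclast library and 0.083 to 0.093% of a macrophage library. Besides Ctsk, Mmp9 and Acp5, the largest differences were those of Car2, the carbonic anhydrase that supplies protons, with 0.55, 0.775 and 0.676 FPKM in macrophages and 174, 168 and 158 FPKM in osteoclasts, a difference of 6.65 (SE 0.06, limma adjusted p = 4.19e-16). Plekhm1, a lysosome-trafficking adapter needed for the ruffled border, had 4.44, 4.18 and 4.32 against 52.7, 59 and 55.7 FPKM. Slc4a2, the chloride-bicarbonate exchanger, had 14.6, 14.5 and 15.7 against 124, 138 and 126 FPKM.

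Other resorption genes were separated by less, with clear macrophage expression under LPS. Mmp14, a membrane-bound metalloproteinase, measured 50.2, 45.6 and 53 FPKM in LPS-treated macrophages and 143, 152 and 149 FPKM in LPS-treated osteoclasts, a difference of 1.56 (SE 0.07, limma adjusted p = 3.90e-10). Untreated macrophages averaged 2.55 FPKM, so the difference without LPS was 5.17. Snx10, a sorting nexin mutated in osteopetrosis, measured 58.5, 51.9 and 55.5 against 148, 131 and 135 FPKM, and its difference was 1.30 with LPS and 3.99 without. The proton pump subunit Tcirg1 (170, 146 and 151 against 521, 591 and 537 FPKM) and the chloride channel Clcn7 (53.3, 45.3 and 49.6 against 219.7, 260 and 238 FPKM) had differences of 1.82 and 2.25 with LPS and 3.08 and 3.61 without. In all, 6 of the 11 genes had a called interaction that narrowed the gap and 2 had one that widened it, against 10.9% and 31.9% of all genes tested.

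Among 12 genes of osteoclast signalling and fusion, 9 were higher in LPS-treated osteoclasts, 2 lower and 1 not called, with a median difference of 4.68. Without the added 1 FPKM, and with the 3 genes at the macrophage floor taken at their bounds, the median log2 ratio was 5.91. Nfatc1, the master transcription factor of osteoclast formation, had 4.75, 4.61 and 4.62 FPKM in macrophages and 128, 141 and 132 FPKM in osteoclasts, 28.7-fold higher, and its difference of 4.57 was larger than the 3.83 without LPS (interaction 0.74, adjusted p = 3.20e-07). The beta 3 integrin gene Itgb3 had 0.757, 0.772 and 0.953 against 108, 99.9 and 104 FPKM. Calcr, the calcitonin receptor, had 0, 0 and 0.0182 against 27.8, 25 and 28.3 FPKM, at least 488-fold higher, and the fusion gene Ocstamp had 0.236, 0.22 and 0.311 against 115, 117 and 112 FPKM.

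Src, the tyrosine kinase that organises the sealing zone, lost most of its separation under LPS. It measured 47.9, 42.6 and 48 FPKM in LPS-treated macrophages and 120.2, 133 and 119.8 FPKM in LPS-treated osteoclasts, a difference of 1.41 (SE 0.07, limma adjusted p = 7.91e-10). Without LPS the means were 1.23 and 109 FPKM and the difference 5.62, so the change was -4.21 (interaction adjusted p = 2.31e-11). The alpha v integrin gene Itgav narrowed as well, with 130.3, 135 and 134 against 197, 204 and 207 FPKM under LPS and a difference of 0.60 against 2.15 without.

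Tnfrsf11a, which encodes RANK, the receptor of RANKL, changed sides. It measured 60, 63.3 and 65.6 FPKM in LPS-treated macrophages and 47.9, 52.2 and 51.8 FPKM in LPS-treated osteoclasts, without overlap, and its difference was -0.31 (SE 0.05, limma adjusted p = 4.41e-05), against 0.63 without LPS. Under quantile normalization this small difference became 0.024 and was not called. Trem2 was lower in osteoclasts with and without LPS (-3.68 and -3.49), at 111, 118 and 115 FPKM in LPS-treated macrophages and 10.5, 5.68 and 8.61 FPKM in LPS-treated osteoclasts. Tyrobp, the adapter DAP12 that Trem2 and Siglec15 use, measured 847, 869 and 871 against 987, 841 and 812 FPKM and was not called (difference 0.02, adjusted p = 0.731), though it was called higher in osteoclasts after quantile normalization (0.41) or rescaling to TPM (0.18).

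The vacuolar proton pump (V-ATPase), which acidifies lysosomes and the resorption space, was higher in osteoclasts for 15 of 16 subunit genes, with a median difference of 2.10 with LPS and 2.56 without. Its summed FPKM took 1.54 to 1.65% of an osteoclast library and 0.268 to 0.276% of a macrophage library. The d2 subunit gene Atp6v0d2 had 2.77, 2.66 and 2.23 FPKM in macrophages and 860.3, 781 and 789 FPKM in osteoclasts, while the alternative d1 subunit gene Atp6v0d1 had 71.2, 71.4 and 68.7 against 162, 171 and 152 FPKM. The catalytic A subunit Atp6v1a had 137, 133 and 135 against 532, 558 and 526 FPKM. Atp6v0a1 was the exception, at 36.4, 38.6 and 35.3 FPKM in macrophages and 5.21, 4.15 and 4.84 FPKM in osteoclasts, a difference of -2.72 (SE 0.07, limma adjusted p = 2.84e-12), opposite in sign to Tcirg1, which encodes the a3 form of the same subunit.

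Promoter windows from RefSeq on build GRCm38.p6, each 300 bases from 250 before to 50 after the gene's start, were searched on both strands for motifs of factors known for these pathways. The E-box palindrome TCACGTGA, bound by MITF and TFE family factors that serve osteoclast and lysosome genes, was in the window of 3 of the 11 V-ATPase genes with a window in that table (Atp6v1a, Atp6v0d1 and Atp6v0e), 1 of 9 resorption genes (Clcn7) and 1.12% of all 27025 genes with a window. It was in no window of the 10 chemokine, 12 cytokine and 17 interferon-stimulated genes that had one. Atp6v0e, the e subunit, is shown because it had the largest difference among those that hold it, and it measured 42.3, 44.2 and 43.7 FPKM in macrophages and 254, 242 and 221 FPKM in osteoclasts. The window is chr17:26676146-26676445 on the plus strand, with the motif in capitals, and the motif lies within the 50 bases after the start. A match is a description of these letters, not a binding site.
Atp6v0e: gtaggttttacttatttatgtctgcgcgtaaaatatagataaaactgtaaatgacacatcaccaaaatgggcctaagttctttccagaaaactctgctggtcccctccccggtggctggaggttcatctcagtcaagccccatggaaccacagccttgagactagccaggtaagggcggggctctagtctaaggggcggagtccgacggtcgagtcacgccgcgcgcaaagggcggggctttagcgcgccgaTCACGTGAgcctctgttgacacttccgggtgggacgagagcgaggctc

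Energy metabolism genes of the mitochondrion were higher in LPS-treated osteoclasts without exception in the lists. All 33 nuclear-encoded genes of oxidative phosphorylation were called higher, with a median of 1.76 with LPS and 1.81 without. All 13 genes of the TCA cycle were called higher, with a median of 1.93 with LPS and 1.85 without. Mdh2, the mitochondrial malate dehydrogenase, had the largest difference of the TCA genes, at 32.1, 37.2 and 35 FPKM in macrophages and 349, 346 and 317 FPKM in osteoclasts (3.24, limma adjusted p = 4.23e-13). Cyc1, cytochrome c1 of complex III, had the largest of the respiratory genes, at 30.6, 31.6 and 32.7 against 197, 190 and 189 FPKM (2.56). The mitochondrially encoded mt-Co1 and mt-Nd1 were among the 5 most abundant genes of the osteoclasts. The complex IV gene mt-Co1 had 5099, 4627 and 4681 against 17267, 14971 and 14946 FPKM, and the complex I gene mt-Nd1 had 2178, 2053 and 2024 against 9144, 7447 and 7385 FPKM.

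Glycolysis was split. Of 17 genes, 12 were higher and 5 lower in LPS-treated osteoclasts, with a median of 0.48 that became 0.80 for glycolysis under quantile normalization with the same counts. The higher ones included the enzymes Aldoa (1.49), Pgam1 (1.90) and Ldha (1.34). The 5 lower ones were Pfkfb3, which makes the activator of phosphofructokinase, the hexokinases Hk3 and Hk2, the phosphofructokinase Pfkp and the glucose transporter Slc2a1. Pfkfb3 measured 63.5, 55 and 64.9 FPKM in LPS-treated macrophages and 2.79, 2.22 and 2.91 FPKM in LPS-treated osteoclasts, a difference of -4.09 (SE 0.10, limma adjusted p = 1.68e-12). Hk2 measured 74.7, 72.1 and 74.8 against 9.1, 10.6 and 9.76 FPKM, and its difference of -2.79 compares with -0.82 without LPS (interaction adjusted p = 3.98e-09).

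Macrophage identity genes were lower in osteoclasts for 17 of 17 genes, with a median difference of -3.39 with LPS and -3.66 without. They took 4.73 to 4.83% of the summed FPKM in macrophages and 0.399 to 0.643% in osteoclasts, and without osteoclast replicate 2 the median with LPS was -3.18. The fractalkine receptor gene Cx3cr1 had 34.3, 42 and 37 FPKM in macrophages and 0.348, 0.13 and 0.292 FPKM in osteoclasts, and the F4/80 antigen gene Adgre1 had 673, 665 and 671 against 73.1, 42.5 and 70.9 FPKM. The complement gene C1qa had 1278, 1331 and 1341 against 46.3, 32.6 and 49.4 FPKM, 30.8-fold higher in macrophages. Lysozyme (Lyz2) had 13285, 12894 and 12827 against 1843, 927 and 1590 FPKM, 8.95-fold higher. Csf1r, the M-CSF receptor on which both cell types depend, differed least, with 415, 430.4 and 416 against 286, 304 and 289 FPKM (-0.52, limma adjusted p = 3.11e-08).

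The transcription factors in that list moved in different ways. Irf8, which restrains osteoclast formation, had 88.5, 96.8 and 100.1 FPKM in LPS-treated macrophages and 0.752, 0.506 and 0.979 FPKM in LPS-treated osteoclasts, and its gap widened from -3.50 to -5.79 (interaction adjusted p = 1.67e-08). Cebpa had 16.5, 21 and 18.7 against 2.07, 1.72 and 2.2 FPKM, with a gap of -3.96 without LPS and -2.72 with it.

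Scavenger, lectin and Fc receptors were lower in osteoclasts for 12 of the 12 tested, with a median of -4.01 with LPS (-3.87 without osteoclast replicate 2) and -2.10 without LPS. The Fc gamma receptor gene Fcgr3 was at 394, 335 and 392 FPKM in macrophages and 12.7, 5.19 and 7.83 FPKM in osteoclasts, and Stab1, a scavenger receptor gene, was at 317, 297 and 293 against 10, 7.34 and 10.4 FPKM. Mincle, encoded by Clec4e, had 290.4, 251 and 263 against 51.2, 28.7 and 49.7 FPKM and a difference of -2.65 against -0.68 without LPS. Scarb1 was nearly equal at 7.71, 9.29 and 9.03 against 7.28, 7.92 and 7.61 FPKM (-0.17, adjusted p = 0.0379). It was not called without LPS-treated macrophage replicate 2 or 3 or LPS-treated osteoclast replicate 1 or 3, with adjusted p of 0.0717 to 0.145, which leaves 11 of 12. Nor was Scarb1 called without the filter on low genes, in a fit of the LPS-treated groups alone, after rescaling to TPM or under quantile normalization, with adjusted p of 0.0686 to 0.757.

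The LPS-sensing pathway did not differ in 1 direction. Of 17 genes, 5 were higher in LPS-treated osteoclasts, 10 lower and 2 not called, with a median of -0.56. After rescaling to TPM 6 were higher and 10 lower, and under quantile normalization 6 were higher and 9 lower. The receptor Tlr4 had 10.6, 9.26 and 9.75 FPKM in macrophages and 2.42, 2.67 and 3.28 FPKM in osteoclasts, a difference of -1.52 (SE 0.09, limma adjusted p = 4.93e-09), against -1.52 without LPS (interaction adjusted p = 0.969). Its co-receptor Cd14, which hands LPS to the complex, had 763, 764 and 811 against 54.6, 34.2 and 46.9 FPKM, 17.2-fold higher in macrophages. MD-2, encoded by Ly96, had 8.98, 10 and 10.5 against 11.1, 9.02 and 8.85 FPKM and was not called (-0.03, adjusted p = 0.791). The other gene not called was the kinase gene Irak4 (0.14, adjusted p = 0.0703), which was called higher in osteoclasts without LPS-treated macrophage replicate 1 (0.17).

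Among the adapters, Myd88 had 108, 99.6 and 104 FPKM in macrophages and 14.9, 14.2 and 14.4 FPKM in osteoclasts, while Ticam1, which encodes TRIF, was higher in osteoclasts at 4.24, 4.99 and 5.14 against 15.3, 16.2 and 14.7 FPKM (1.51, limma adjusted p = 1.52e-09). The ubiquitin ligases Traf6 and Traf3 and the kinase components Ikbkg and Irak1 were higher in osteoclasts too, by 0.42 to 0.73 log2 units. The kinases Tbk1, Ikbkb and Irak2 were lower by 1.13, 1.18 and 1.46 log2 units. Exons of Myd88 overlap those of Acaa1a on the opposite strand, which leaves its values uncertain.

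NF-kB factors and their feedback inhibitors were lower in LPS-treated osteoclasts for 18 of 18 genes, with a median of -2.55. Without LPS the same 18 genes had a median of 0.12, with 7 higher in osteoclasts, 6 lower and 5 not called, where 38.8% of all genes tested were higher and 39% lower. The sums of the list were 761, 723 and 722 FPKM in osteoclast replicates 1 to 3. The subunit gene Nfkb1 had 113, 111 and 114 FPKM in macrophages and 15.7, 13.2 and 15.5 FPKM in osteoclasts, and Rela had 120.1, 120.4 and 122 against 37.4, 38.7 and 38.7 FPKM. The A20 deubiquitinase gene Tnfaip3 had 512, 493 and 501 against 44.6, 43.6 and 44.7 FPKM, a difference of -3.47 (SE 0.04, limma adjusted p = 7.95e-15), where untreated osteoclasts had been higher (19.6 against 6.27 FPKM, difference 1.51).

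The largest gaps in that list were in feedback inhibitors. Socs3, which blocks cytokine receptor signalling, had 879, 871 and 907 FPKM in macrophages and 15.3, 8.06 and 17.1 FPKM in osteoclasts, 65.7-fold higher in macrophages. Dusp1, a phosphatase of MAP kinases, had 158, 202 and 190.4 against 4.25, 5.48 and 4.16 FPKM. Dusp2, a phosphatase of the same family, had 263, 272 and 279.9 against 6.88, 4.83 and 5.99 FPKM. Dusp2 was newly separated by LPS, with a difference of -0.08 without LPS (adjusted p = 0.492) and -5.32 with it.

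AP-1 and immediate-early factors were mixed, with 4 of 12 tested genes higher in osteoclasts, 7 lower and 1 not called, and a median of -0.56. The median of AP-1 and immediate-early factors was -0.91 with a pseudocount of 0.1, -0.998 by voom and -0.17 with a filter of 5 FPKM, where 4 tested genes were lower. The osteoclast factor Fos had 25.9, 26.4 and 24.2 FPKM in macrophages and 101, 105 and 95.1 FPKM in osteoclasts (1.94, limma adjusted p = 2.09e-12). Fosl2 had 10.4, 8.78 and 8.81 against 71.6, 84.4 and 77.6 FPKM. Jun had 31.2, 30.2 and 33.6 against 35.9, 46.1 and 39.1 FPKM. Junb, Atf3 and Ier3 were on the macrophage side, with Atf3, a repressor of inflammatory genes, at 289, 298 and 287 against 9.73, 7.53 and 13.8 FPKM. Jund was the gene not called (-0.17, adjusted p = 0.0632). It was called lower in osteoclasts without LPS-treated macrophage replicate 1 (-0.22), LPS-treated osteoclast replicate 2 (-0.25) or untreated macrophage replicate 2 or 3 (-0.17) and by voom (-0.18), while quantile normalization gave 0.16, not called.

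Cytokine genes were lower in LPS-treated osteoclasts for 15 of the 16 tested, with a median of -4.30, against -0.16 without LPS. Without the added 1 FPKM the median log2 ratio of the group means was -4.83, and no tested cytokine gene was at the floor. Tnf measured 1453, 1611 and 1388 FPKM in macrophages and 159, 107 and 159 FPKM in osteoclasts, a difference of -3.40 (SE 0.14, limma adjusted p = 2.39e-10). Il6, an acute-phase cytokine, measured 139.6, 127 and 134 against 5.22, 3.45 and 5.91 FPKM. Il12b, a subunit gene of the interleukin-12 family, measured 303, 308 and 281 against 13.2, 7.49 and 12.3 FPKM. The anti-inflammatory Il10 did not differ in direction from these, at 83.5, 80.8 and 83.4 against 2.12, 1.63 and 1.34 FPKM. Ifnb1, interferon-beta, measured 54, 72.6 and 54.1 against 0.539, 0.865 and 0.95 FPKM, 76.8-fold higher in macrophages. For 8 of the 16 genes the cell types did not differ detectably before LPS, where 38.8% of all genes tested were higher and 39% lower in osteoclasts. The 19 listed cytokine genes summed to 80.3 FPKM in untreated macrophages and 53.9 FPKM in untreated osteoclasts. The added 1 FPKM shrinks the untreated differences of those with low values.

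Lif was the single cytokine higher in osteoclasts. This gene of leukaemia inhibitory factor, an interleukin-6 family cytokine that acts on bone-forming cells, measured 3.26, 4.84 and 3.83 FPKM in LPS-treated macrophages and 28.5, 32 and 28.5 FPKM in LPS-treated osteoclasts. Its difference was 2.63 (SE 0.12, limma adjusted p = 7.34e-10) and had been 4.15 without LPS. Csf1, the gene of M-CSF, was 12.7-fold higher in macrophages at 67.3, 69 and 69.1 FPKM, against 4.83, 5.79 and 5.61 FPKM.

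Chemokine genes were lower in osteoclasts for 15 of 16 tested, with a median of -4.35 with LPS and -0.76 without. They took 5.46 to 5.67% of the summed FPKM of an LPS-treated macrophage library and 0.357 to 0.483% of an osteoclast library. Ccl4 was among the 5 most abundant genes of LPS-treated macrophages, at 5302, 5552 and 5623 FPKM, and had 164, 86.6 and 155 FPKM in osteoclasts, 40.6-fold less. The neutrophil attractants Cxcl1 and Cxcl2 were separated less, 4.27-fold and 6.36-fold. Cxcl1 had 116, 128 and 103 against 32.8, 19.4 and 28.8 FPKM. Cxcl2 had 421, 469.7 and 401 against 76.8, 50.5 and 75.7 FPKM. Ccl7, an attractant of monocytes, was separated most, at 2989, 3068 and 2949 FPKM in macrophages and 50.2, 24.8 and 48.9 FPKM in osteoclasts.

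Ccl22 and Ccl9 did not share in this gap. Ccl22, which attracts CCR4-bearing T cells, measured 19.5, 26.4 and 25.7 FPKM in LPS-treated macrophages and 27.3, 20.1 and 25 FPKM in LPS-treated osteoclasts, overlapping (difference 0.02, SE 0.12, limma adjusted p = 0.9). Both cell types had under 1 FPKM of it without LPS, 0.0493 in macrophages and 0.49 in osteoclasts. Ccl9, an osteoclast chemokine, measured 824, 819 and 872 against 762, 676 and 693 FPKM. It was called slightly lower in osteoclasts (-0.24, adjusted p = 0.000678), but was not called after rescaling to TPM (-0.08) or quantile normalization (0.067).

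The chemokine sums in osteoclast replicates 1, 2 and 3 were 1781, 1266 and 1722 FPKM, so the library with the least macrophage-gene signal also had the least chemokine signal. Without that library the list's median difference was -4.09, and 15 genes were again lower. It was -4.18 for the cytokines. Macrophages exceeded osteoclasts by 14.2-fold in summed chemokine FPKM, 16.5-fold in summed cytokine FPKM and 9.67-fold in summed macrophage identity FPKM. Single genes weighed heavily in the osteoclast sums, Ccl9 among the chemokines, Tnf among the cytokines and Lyz2 among the identity genes. The folds of sums therefore do not give the typical fold of a list. The part that macrophages left in the osteoclast cultures had in these values was not tested.

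**Figure D2:**
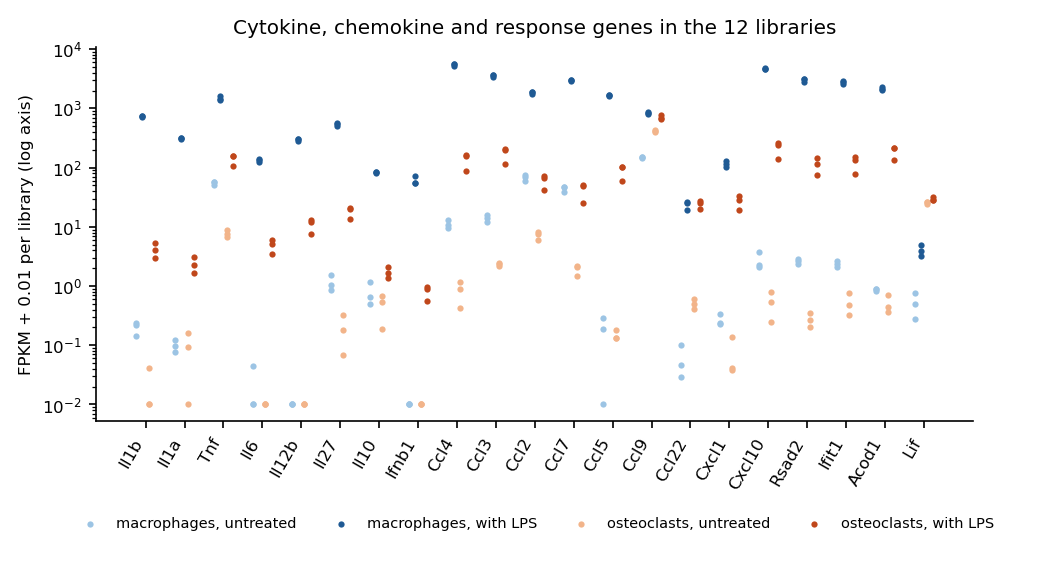
FPKM of 21 cytokine, chemokine and response genes in each of the 12 libraries, on a log axis after adding 0.01, with untreated macrophages in light blue, LPS-treated macrophages in dark blue, untreated osteoclasts in orange and LPS-treated osteoclasts in red. Dark blue lies above red except for Ccl22, where they overlap, and Lif, where red is higher.

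The other motifs searched belong to LPS-responsive factors. The NF-kB site (GGG, any 3 bases, TTCC) was in the window of 5 of the 10 chemokine genes with a window (Ccl9, Cxcl1, Cxcl2, Cxcl3 and Cxcl10), 4 of 12 cytokine genes, 4 of 17 interferon-stimulated genes and 6.31% of all genes, and in none of the 11 V-ATPase or 9 resorption windows. The interferon response element (GAAA, any 2 bases, GAAA) was in 10 of 17 interferon-stimulated genes with a window, 1 of 10 chemokine genes, 0 of 12 cytokine genes, 1 of 11 V-ATPase genes, 2 of 9 resorption genes and 3.99% of all genes. Cxcl10, an interferon-induced attractant of T cells, is shown because it had the largest difference among the chemokines with an NF-kB match, and its window also holds an interferon response element, with no base in common. It measured 4579.9, 4564 and 4805 FPKM in macrophages and 239.8, 141 and 260.1 FPKM in osteoclasts, 21.8-fold less. Its window is chr5:92348840-92349139, printed 5′ to 3′ on the minus strand, with the NF-kB matches in capitals.
Cxcl10: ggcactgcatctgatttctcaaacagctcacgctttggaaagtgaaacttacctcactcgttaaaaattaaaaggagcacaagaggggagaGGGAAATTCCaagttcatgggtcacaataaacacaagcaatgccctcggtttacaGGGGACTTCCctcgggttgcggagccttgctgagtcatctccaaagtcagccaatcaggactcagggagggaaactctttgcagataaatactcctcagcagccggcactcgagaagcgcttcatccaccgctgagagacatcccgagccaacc

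Interferon-stimulated genes were lower in LPS-treated osteoclasts for 24 of 24 genes, with a median of -3.55 against -1.47 without LPS. The interaction widened the gap for 23 of them, against 31.9% of all genes tested. Rsad2, which encodes the antiviral enzyme viperin, measured 3084, 2804 and 3098 FPKM in macrophages and 113, 74.3 and 143 FPKM in osteoclasts, 27.2-fold less. Ifit1, a binder of foreign RNA caps, measured 2920, 2623 and 2787 against 134, 79.4 and 150 FPKM. Isg15, a ubiquitin-like modifier, measured 835, 805 and 893 against 81.5, 51.1 and 86.5 FPKM. Bst2, which tethers budding virions, was the gene whose interaction was not called (-3.16 with LPS and -2.93 without, interaction adjusted p = 0.257).

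The summed FPKM of these 24 genes was 731, 486 and 866 in osteoclast replicates 1, 2 and 3 and 12547 to 13920.5 in macrophages, 19.3-fold higher. Without osteoclast replicate 2 the median was -3.41. Rsad2 had the largest difference among those with an interferon response element, and its window, chr12:26456403-26456702 printed on the minus strand, shows the interferon response element in capitals, here as its reverse complement.
Rsad2: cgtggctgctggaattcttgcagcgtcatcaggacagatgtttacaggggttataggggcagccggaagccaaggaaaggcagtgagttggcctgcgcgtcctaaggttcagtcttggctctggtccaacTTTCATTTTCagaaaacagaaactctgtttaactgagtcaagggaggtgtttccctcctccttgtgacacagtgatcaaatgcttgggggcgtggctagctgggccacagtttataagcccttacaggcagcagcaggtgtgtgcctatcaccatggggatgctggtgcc

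Guanylate-binding proteins and immunity-related GTPases, which attack the vacuoles of intracellular microbes, were lower in osteoclasts for 13 of 13 tested, with a median of -3.92 (-3.73 without osteoclast replicate 2) against -0.21 without LPS. The 14 listed genes summed to only 23.7 FPKM in untreated macrophages and 10.2 FPKM in untreated osteoclasts. At such low values the added 1 FPKM shrinks the difference without LPS. Iigp1 measured 197, 152 and 182 FPKM in macrophages and 2.88, 2.18 and 4.49 FPKM in osteoclasts, 55.5-fold less, and the cell types did not differ detectably without LPS (-0.21, adjusted p = 0.238). Its place among the genes whose gap widened was lost by voom. Gbp2 measured 436, 391 and 429 against 22.9, 14.4 and 28.6 FPKM. Gbp7 measured 61.2, 46.8 and 53.8 against 10.2, 8.11 and 11.7 FPKM. Gbp7 was the member that had been higher in osteoclasts without LPS (1.38) and was lower with it (-2.32). Exons are shared on the same strand by Irgm2 and Igtp and by Gbp4, Gbp8 and Gbp9, so counts within those sets are uncertain.

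Inflammatory effector enzymes were lower in osteoclasts for 11 of 11 tested, with a median of -2.82 (-2.59 without osteoclast replicate 2) against -0.17 without LPS. The 12 listed genes summed to 91.5 FPKM in untreated macrophages and 43.9 FPKM in untreated osteoclasts, and the added 1 FPKM shrinks untreated differences of low genes. Acod1, which makes itaconate, measured 2335, 2084 and 2134 FPKM in macrophages and 213, 133 and 215 FPKM in osteoclasts, 11.7-fold less. Nos2, the inducible nitric oxide synthase, measured 68.3, 47.6 and 61.3 against 8.08, 5.93 and 11.1 FPKM. Ptgs2, cyclooxygenase-2, measured 174, 160.1 and 165 against 15.1, 9.06 and 18.2 FPKM. Sod2, the mitochondrial superoxide dismutase, had been higher in osteoclasts without LPS (1.35) and was lower with it (-1.79), at 109, 99.7 and 106 against 31.6, 27.6 and 30.1 FPKM.

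Inflammasome and pyroptosis genes were lower for 12 of 12, with a median of -1.81 (-1.70 without osteoclast replicate 2) against -1.03 without LPS. The sensor Nlrp3 had 186, 185 and 177 FPKM in macrophages and 21, 13.9 and 19 FPKM in osteoclasts, 10.2-fold less, and its interaction was not called (adjusted p = 0.0558). Gsdmd, the pore-forming executor of pyroptosis, was close in the cell types at 59.9, 50.1 and 55.1 against 39.5, 42.7 and 43 FPKM (-0.39, limma adjusted p = 7.45e-05), after a difference of 0.89 without LPS, and was not called under quantile normalization (-0.08). Casp4, the sensor of cytosolic LPS, measured 58.6, 48.1 and 49.4 against 15, 11.8 and 14.9 FPKM and likewise crossed from 1.32 to -1.83.

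Antigen presentation and co-stimulation genes were lower for 15 of 16 tested, with a median of -1.87 against -0.68 without LPS. The co-stimulatory gene Cd86 had 28.3, 22.8 and 24.7 FPKM in macrophages and 0.538, 0.62 and 0.688 FPKM in osteoclasts, 41.1-fold less, and Cd274, which encodes PD-L1, had 337, 297 and 334 against 24.3, 17 and 30.2 FPKM. The class I gene H2-D1 differed less, at 728, 686 and 729.5 against 396, 396 and 398 FPKM (-0.85, limma adjusted p = 2.32e-09). Tap2, a peptide transporter subunit, was 23.9, 22.5 and 24.1 against 19.5, 20.2 and 20.9 FPKM and its difference of -0.21 became 0.033 under quantile normalization and -0.06 after rescaling to TPM, and was called in neither. H2-DMb1 was the gene not called (0.13, adjusted p = 0.185), and it was called higher in osteoclasts under those scalings (0.24 and 0.29).

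Cell cycle genes were lower in osteoclasts for 22 of 22, with a median of -1.88 with LPS (-1.78 without osteoclast replicate 2) and -2.36 without LPS. The proliferation marker Mki67 had 47.9, 44.4 and 44.6 FPKM in macrophages and 4.16, 2.24 and 4.55 FPKM in osteoclasts, 12.5-fold less, and Pcna, the replication clamp, had 171, 194 and 182 against 35.4, 28.5 and 30 FPKM. For 10 of the 22 the interaction narrowed the gap, against 10.9% of all genes tested, as for Cdc20, at 6.5, 8 and 8.27 against 3.3, 2.08 and 3.37 FPKM and a difference of -1.14 with LPS and -2.23 without.

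**Figure D3:**
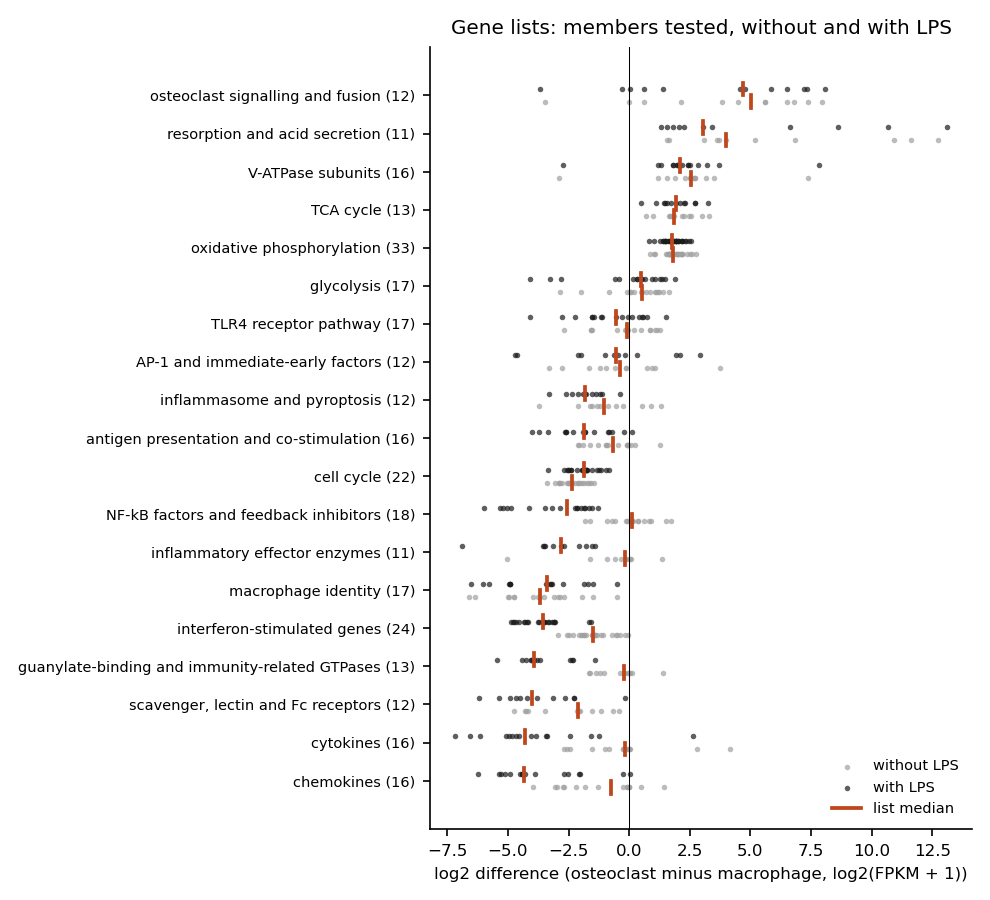
Log2 differences (osteoclast minus macrophage) of the tested members of 19 gene lists, 1 point per gene, black with LPS and grey without, with red bars at the list medians and the number of tested genes in brackets. The chemokine and cytokine medians are -4.35 and -4.30 with LPS and -0.76 and -0.16 without, while those of oxidative phosphorylation stay at 1.76 and 1.81.

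The differences with LPS were set against those without, which come from other libraries. Across genes the log2 differences had a Pearson correlation of 0.80 and a Spearman correlation of 0.77, as a description over genes that are not independent. The median absolute difference was 0.69 with LPS and 0.52 without, and 6806 genes (about 60%) had the larger absolute difference with LPS. The interaction was called for 6413 genes, 56.6% of those tested. It widened the gap for 3611 genes (31.9%), 1541 of them higher and 2070 lower in osteoclasts, and narrowed it for 1233 (10.9%), which became 1948 after rescaling to TPM.

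The sign changed for 927 genes (8.18%), 412 to higher in osteoclasts (3.63%) and 515 to lower (4.54%). These counts depended on scaling, since rescaling to TPM gave 1468 and 160 and moved the median difference of all genes from -0.02 to 0.12. The 5 genes of each direction whose smaller difference was largest kept their class under 20 of 20 alternatives. A further 520 genes (4.59%) higher and 727 (6.41%) lower in osteoclasts were separated with LPS and not called without it, and 614 (5.42%) lost their separation.

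**Figure D4:**
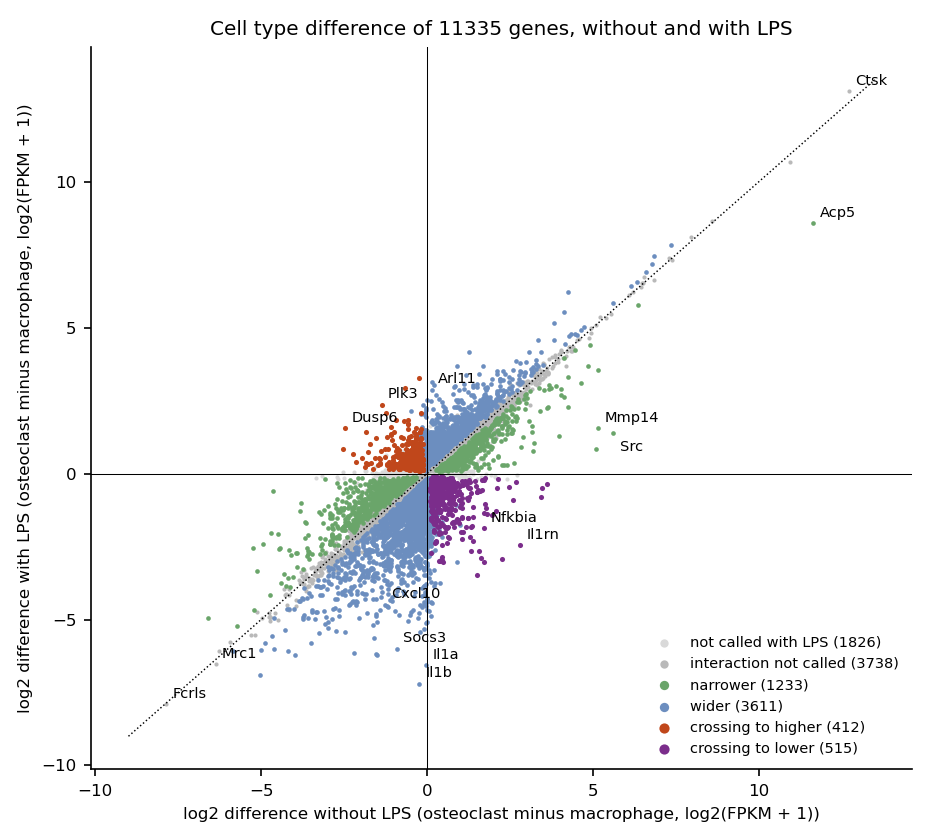
Log2 difference (osteoclast minus macrophage) of 11335 genes without LPS (horizontal) and with LPS (vertical), with the dotted line at equality and colours for the class of each gene by the limma tests. Ctsk, Fcrls and Mrc1 lie near the line, Il1b and Il1a lie far below it near 0 without LPS, and Acp5, Src and Mmp14 lie below it on the osteoclast side.

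The 5 clearest genes that crossed to the osteoclast side had macrophage values that were high without LPS and low with it. Dusp6, a phosphatase of ERK kinases, averaged 68.9 FPKM in untreated macrophages and 11.6 in untreated osteoclasts. With LPS it measured 1.5, 1.65 and 1.77 FPKM in macrophages and 7.35, 6.13 and 6.89 FPKM in osteoclasts, and the difference went from -2.47 to 1.56 (interaction 4.03, SE 0.10, adjusted p = 3.57e-11). Sesn1, a stress-induced sestrin, had 1.73, 1.45 and 1.91 against 6.34, 6.34 and 6.11 FPKM with LPS and means of 29.9 and 7.66 FPKM without. The transcription factor Myc had 1.3, 1.9 and 2.25 against 11.3, 11.7 and 9.64 FPKM with LPS and means of 23.7 and 9.57 FPKM without.

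Plk3, a stress-responsive polo-like kinase, had 0.774, 0.847 and 0.843 FPKM in LPS-treated macrophages and 8.44, 7.92 and 8.9 FPKM in LPS-treated osteoclasts, and its difference went from -1.36 to 2.37. The lincRNA Gm14221 had 1.5, 2.21 and 1.92 against 5.67, 6.38 and 5.65 FPKM and went from -1.22 to 1.27. Plk3 shares exon sequence with Tctex1d4 on the opposite strand. In each of these 5 genes the osteoclast means with and without LPS lay nearer to each other than the macrophage means did.

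The 5 that crossed to the macrophage side included inhibitors of inflammation. Il1rn, which encodes the interleukin-1 receptor antagonist, averaged 1.43 FPKM in untreated macrophages and 16 FPKM in untreated osteoclasts. With LPS it measured 132, 106 and 132 against 22.2, 21.2 and 22.2 FPKM, and the difference went from 2.81 to -2.44 (interaction -5.25, SE 0.12, adjusted p = 2.31e-11). Nfkbia, the gene of the NF-kB inhibitor I-kappa-B alpha, had means of 64.9 and 216 FPKM without LPS and 1023, 1028 and 1043 against 296, 286 and 268 FPKM with it. Rnd1 and Rnd3 encode GTPases that oppose RhoA. With LPS, Rnd1 had 176, 153 and 180.1 against 23.7, 20.5 and 21 FPKM and Rnd3 had 93.8, 86.6 and 86.2 against 10.5, 8.68 and 10.8 FPKM. Tnfaip2 had 1847, 1825 and 1828 against 269.7, 219 and 256 FPKM and went from 1.64 to -2.88, and it shares exon sequence with Gm40578 on the opposite strand.

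**Figure D5:**
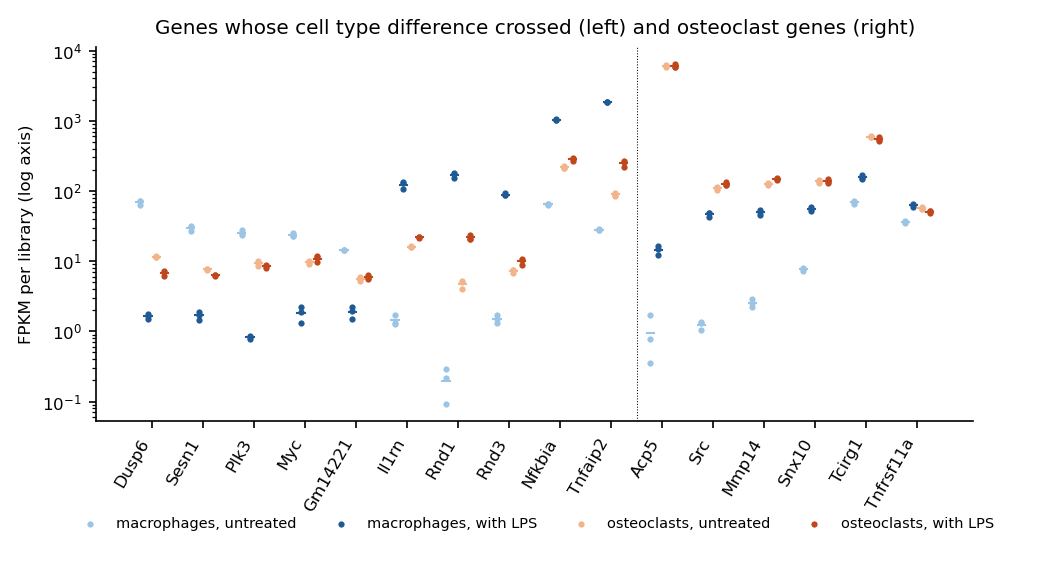
FPKM of the 10 genes whose cell type difference changed sign (left of the dotted line) and of 6 osteoclast genes (right), in each of the 12 libraries on a log axis, with short bars at the group means. Acp5, Src, Mmp14, Snx10 and Tcirg1 show LPS-treated macrophages (dark blue) above untreated ones (light blue) with osteoclasts still higher, and for Tnfrsf11a dark blue passes the osteoclast points.

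In the FPKM as deposited, newly separated genes on the osteoclast side were fewer, and their largest differences were smaller. The counts of newly separated genes were not repeated under other scalings. Arl11, a small GTPase gene, measured 2.4, 3.25 and 3.23 FPKM in LPS-treated macrophages and 28.6, 30.6 and 25.3 FPKM in LPS-treated osteoclasts, a difference of 2.88 (SE 0.09, limma adjusted p = 2.38e-11), where untreated means were 27.7 and 31 FPKM. Lfng, which adds sugars to Notch receptors, measured 6.41, 8.61 and 8.35 against 48, 50.1 and 49.8 FPKM (2.53 with LPS, 0.01 without). AI467606 measured 0.324, 0.555 and 0.626 against 7.16, 7.82 and 7.51 FPKM (2.51 and 0.14). Gm22574 rests on 2 macrophage and 24 osteoclast reads in all, at least 2.07-fold higher in osteoclasts, and it kept its class under 6 of 19 alternatives. Arl11 lost its class after rescaling to TPM, and Lfng after that or quantile normalization.

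Of the 5 most abundant genes of each LPS-treated group, only Gm23935 was in both, and longer rankings were not compared. The 5 with the highest mean FPKM in LPS-treated macrophages were Gm23935, Lyz2, Fth1, Ccl4 and Tmsb4x, and in LPS-treated osteoclasts Gm23935, mt-Co1, Ctsk, mt-Nd1 and Mmp9. Gm23935, annotated as a 57-base miRNA gene, did not differ by the test (0.02, adjusted p = 0.928). The ferritin heavy chain gene Fth1 had 10250.3, 9698 and 9739 FPKM in macrophages and 4418, 3546 and 3735 FPKM in osteoclasts, and the actin-binding thymosin gene Tmsb4x had 4654, 5256 and 4996 against 1576, 1167 and 1209 FPKM.

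Some of the genes named above share exon sequence with another gene, which leaves their values uncertain. On the opposite strand these were, besides those already mentioned, Ikbkg, Junb, Slc2a1, Hk3, Pfkp, Aldoa, Cdc20, Cebpa, Ch25h, Csf1r, Cx3cr1, Cxcl10, Dusp1, F13a1, Gbp2, Irak2, Irak4, Itgav, Jun, Jund, Plekhm1, Slc4a2, Stab1, Tap2, Tnfsf9 and mt-Co1. On the same strand they were Gbp7 and mt-Nd1.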

How the data were processed

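RNA was sequenced in 12 libraries, and the labels name the NEBNext Ultra RNA kit. The authors deposited 1 table of FPKM per gene and library. The submitters' processing notes name fastp, STAR, featureCounts and DESeq2 and build mm10, without their roles, and use of strand is not stated. In the deposited values the per-library denominators followed median-of-ratios size factors within 7.42e-05 percent, so FPKM is relative to the typical gene and does not sum to a fixed total. Multiplying by these denominators and by gene length gave whole reads, within 0.02, for 25777 of 25854 genes above 0 (99.7%). The GENCODE M21 exon length served for 96.8% of genes and, for others above 0 in at least 5 libraries, a length searched for in the values. Read numbers in the report come from there, and they limit precision to counting error only.

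Genes that reached 1 FPKM in 3 or more libraries were fitted as log2(FPKM + 1) with limma 3.58.1 in R 4.3.3. The 12 libraries entered 1 fit of 4 group means with a variance trend, contrasts gave the difference with LPS, without LPS and between these (the interaction), with Benjamini-Hochberg adjustment over 11335 genes and calls under 0.05. The fit was checked on simulated data. The members, gene lists and rules were chosen with earlier results of these data known. Named genes are the 12 highest and 12 lowest differences without overlap, the 5 most abundant per group, the 5 clearest crossing genes and 4 clearest newly separated genes per direction, and members of the lists; 320 list genes held 308 that were tested and 302 that were called. Other pseudocounts, filters, scalings (TPM, quantile), voom on recovered reads, a replicate block and leaving out each library were tried. Some genes of these lists are not reported here by name.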

Additional observations from a re-analysis of the deposited data

Results flagged for a closer look

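The genes named by rank whose cell type difference with LPS was unlike that without LPS by the limma interaction test are given here, as the log2 difference (osteoclast minus macrophage) with LPS minus that without. Among the genes with the largest differences on the osteoclast side, the change was -3.04 for Acp5, 0.47 for Atp6v0d2, 0.63 for Gm20056, 0.42 for Siglec15 and 0.28 for Slc9b2. On the macrophage side it was -6.96 for Il1b, -6.56 for Il1a, -4.69 for Olr1, -4.63 for Tnfsf9, -3.94 for Mmp13, -2.23 for Ccl7, -1.89 for P2ry6, -1.85 for Ch25h and -0.22 for F13a1. For genes whose difference changed sign towards osteoclasts it was 4.03 for Dusp6, 3.73 for Plk3, 3.31 for Myc, 3.27 for Sesn1 and 2.48 for Gm14221. For genes whose difference changed sign towards macrophages it was -5.25 for Il1rn, -5.17 for Rnd1, -4.76 for Rnd3, -4.53 for Tnfaip2 and -3.58 for Nfkbia. For genes called with LPS and not without, it was 2.73 for Arl11, 2.51 for Lfng, 2.37 for AI467606, 2.01 for Gm22574, -5.23 for Iigp1 and -5.24 for Dusp2, in addition to Il1b and Il1a. Gm22574 rests on few reads and kept its class under 6 of 19 alternatives. Arl11, Lfng and Iigp1 also lost their class under some alternatives, as given above.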

How the results depend on the processing

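With a filter of a mean of at least 5 FPKM, 6430 genes were tested, and fewer tested genes gave 5694 called, 2732 higher and 2962 lower in osteoclasts, 1162 and 1453 of them by at least 1 log2 unit, with 2269 gaps wider, 803 narrower and 190 crossing to higher. Rescaled to TPM, 1948 gaps narrowed, 1468 crossed to higher and 160 to lower. TPM also moved the share of calls that were higher from 48.8% to 54.8%, and quantile normalization to 54.5%. Quantile normalization turned Tnfrsf11a to 0.024, Ccl9 to 0.067 and Tap2 to 0.033, none called. The cause of the changes under other scalings was not tested.

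Leaving out each library in turn gave 9307 to 9488 called, 4508 to 4627 higher and 4768 to 4865 lower, 1780 to 1824 and 2309 to 2351 by at least 1 log2 unit, 3435 to 3562 gaps wider, 1102 to 1246 narrower, 362 to 398 crossing to higher and 476 to 530 to lower. The replicate numbers were not taken to pair the samples. Same-numbered samples had correlations of deviations of -0.07, 0.05 and -0.01 between the LPS-treated groups, 0.10, 0.10 and -0.05 between macrophages with and without LPS, and 0.07, 0.08 and 0.03 between osteoclasts with and without LPS. Differently numbered samples had -0.10 to 0.11, -0.14 to 0.05 and -0.10 to 0.04 in the same comparisons, in that order. With the replicate block 9512 genes were called, 4628 higher and 4884 lower, 1802 and 2337 by at least 1 log2 unit, with 3635 wider, 1235 narrower, 401 crossing to higher and 511 to lower, and Jund was called lower (-0.17). Of 6165 values for list and marker genes, 6122 kept direction and side of the threshold, 12 lost a call, 18 gained one, 10 changed sign with no call in either fit, and 3 reversed, those of Tnfrsf11a, Ccl9 and Tap2 above. Low FPKM rests on few reads, and folds of genes at the floor are bounds.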
